A study of Drosophila melanogaster with 2 samples.

Results

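CG17803, CG17806, Nnk, CG17801 and Odj are 5 zinc-finger genes that stand side by side on chromosome arm 3R of Drosophila melanogaster. They were taken by position, around the gene whose protein was tagged, and are 5 of 13945 protein-coding genes on the arms that hold peaks. All summits over these genes or within 500 bp of their start sites are described. The data are chromatin immunoprecipitation sequencing (ChIP-seq) peak lists from whole pupae aged 24 hours, of unrecorded sex. The flies were a transgenic line in which CG17806 carries GFP at the C-terminus, and chromatin was pulled down with an antibody to GFP. The labels give 1 group with 2 biological replicates and no untagged or untreated group, so no condition could be compared with another. Positions are on dm6.

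The labels do not say where the tagged copy sits, how much of the neighbouring sequence it carries, or which flies gave the control of the peak calls. A native and an inserted copy of CG17806 or its neighbours have the same positions in these lists and cannot be told apart. In whole animals, fewer cells that hold the protein on a site and less protein per cell cannot be told apart either.

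The 5 genes are counted among the ZAD family, a large group of insect transcription factors. A typical protein of the family carries an N-terminal zinc-finger-associated domain, which holds a zinc ion with cysteines and lets such proteins pair with each other, and a row of C2H2 zinc fingers that can read DNA. The family has grown by local duplication in insects, which leaves clusters of related genes. Nnk (Nicknack) and Odj (Oddjob) are needed for normal development in this species, and the Odj protein is known to locate to heterochromatin. No role is given here for CG17801 or CG17803.

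All 5 genes read on the minus strand, head to tail, over 10346 bp from 17798877 to 17809222. CG17803 (FBgn0038547) runs from 17798877 to 17801512 and has 2 annotated start sites, at 17801293 and 17801512. CG17806 (FBgn0038548), the tagged gene, runs from 17801542 to 17803260, and 29 bp separate it from CG17803. Nnk (FBgn0038549) runs from 17803225 to 17805249, so that its last 36 bp overlap the first bases of CG17806. CG17801 (FBgn0038550) lies from 17805679 to 17807085, with 429 bp between it and Nnk, and Odj (FBgn0038551) from 17807407 to 17809222, with 321 bp between it and CG17801. A summit near a start site can therefore also lie over the end of the gene upstream.

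Translated from the annotated coding exons, the proteins have 381 (CG17801) to 587 (CG17803) residues, and CG17806 has 421. Identity over aligned residues ran from 28.9% for CG17801 and Odj to 35.0% for Nnk and Odj over the 10 pairs, and CG17806 was at 34.3% with Odj and 32.7% with Nnk. The C2H2 spacing (C, 2 to 4 residues, C, 12 residues, H, 3 to 5 residues, H) was matched 7 times in CG17803 and 5 times in each of the other proteins. In CG17806, Nnk, CG17801 and Odj, 2 C-x-x-C motifs set 20 to 60 residues apart, the cysteine spacing looked for as a mark of the ZAD, were found at the N-terminal end. They began at residue 5 in CG17806, Nnk and Odj and at residue 10 in CG17801. Only a single annotated transcript of each gene was translated, and only the N-terminal end of its protein was searched for this spacing. For CG17803 no such arrangement was found there, so CG17803 is counted in the family from background knowledge alone.

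The longest run of bases that a pair of the 5 coding sequences shares is 13 bases, between CG17803 and CG17806. Of all 32-base words that start in the span, 2 occur more than once in the Release 6 assembly, both in CG17806, and none occurs more than once in the coding sequence. Reads of that length could be placed uniquely at nearly every position of the cluster. The read length is not given in the sources used here.

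At the start sites of the 5 genes the lists differed sharply. In replicate 1, all 5 genes had a summit within 500 bp of a start site, where 47.2% of all protein-coding genes did. In replicate 2, none of the 5 had one, where 42.1% of all protein-coding genes did. The list called by the authors on both replicates together, here the pooled list, gave 5 of 5, against 45.3% of all genes. In the list that the authors cut by the irreproducible discovery rate (IDR), a measure of how well peaks repeat in rank between replicates, 1 of the 5 had a summit, that of CG17806, against 19.5% of all genes. The members were chosen with earlier results known, so these counts are set beside the background as a description.

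**Figure D1:**
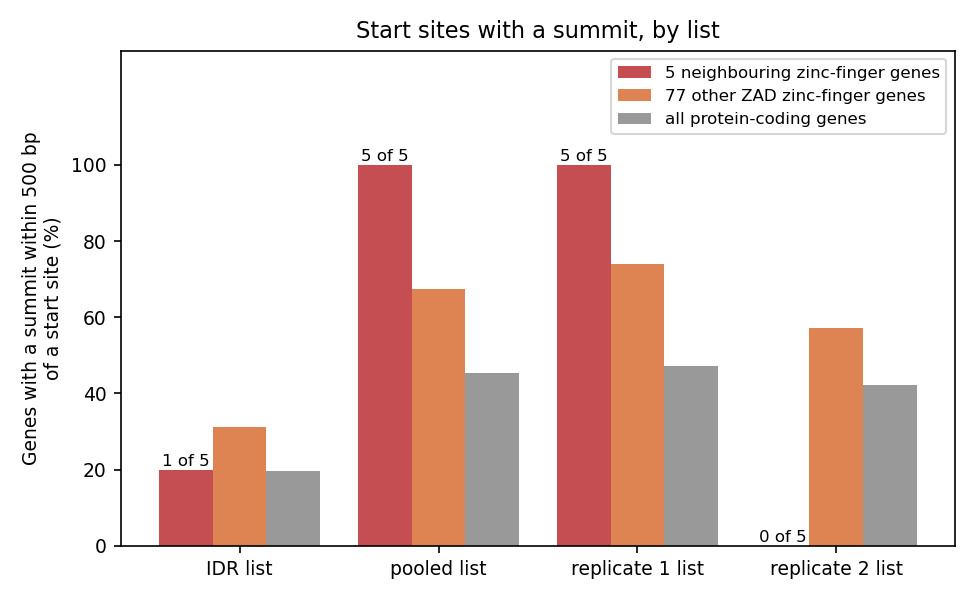
The percent of genes with a summit within 500 bp of a start site in each list, for the 5 neighbouring genes, 77 other ZAD zinc-finger genes and all protein-coding genes. The 5 genes are at 5 of 5 in the pooled list and in replicate 1, at 1 of 5 in the IDR list and at 0 of 5 in replicate 2.

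Counting summits over the gene as well gave 5 of 5 in replicate 1 and in the pooled list, 0 of 5 in replicate 2 and 2 of 5 in the IDR list. The same shares over all protein-coding genes were 50.5% in replicate 1, 49.0% in the pooled list, 51.9% in replicate 2 and 25.4% in the IDR list. The second gene in the IDR list is Nnk, over whose end the CG17806 summit lies. Among 77 other ZAD genes on a list written from knowledge of the family, 57 had a summit near a start site in replicate 1 (74.0%) and 44 in replicate 2 (57.1%). In the pooled list 52 of them did (67.5%), and in the IDR list 24 (31.2%).

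The peaks of a list are ordered here by the authors' signal per peak, whose scale is not stated, with rank 1 the strongest. Each replicate list and the pooled list hold 30000 peaks, and the IDR list holds the 7645 strongest of the pooled list. Support is given as the authors' q-value. It has a floor that many peaks share, 14465 peaks at 3.46e-05 in replicate 1 and 8451 at 5.92e-05 in the pooled list, so it cannot order strong peaks. The replicates differed in support over the whole list, with 79.9% of replicate 1 peaks and 42.6% of replicate 2 peaks at a q-value of at most 0.05. The part of that difference in the results below was not tested. Read depth is unknown, and the lists give no error for a single peak, so the replicate lists are given side by side.

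The summit at the start of CG17806 was the strongest of the cluster in every list that holds one there. It lay at 17803310, 50 bp before the CG17806 start, at the same base in replicate 1, the pooled list and the IDR list. Its peak ran from 17803122 to 17803497. It ranked 4128 in replicate 1 (the first 13.8% of that list) and 4963 in the pooled list (16.5%), and so 4963 of 7645 in the IDR list (64.9%). Its q-value was 3.46e-05 in replicate 1 and 5.92e-05 in the pooled list, the floor of each. Replicate 2 listed no summit closer than 4911 bp.

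The summit fell inside the 3' UTR of Nnk, whose end overlaps the first bases of CG17806. The 29 bases centred on it are shown because this is the only IDR summit of the cluster, at chr3R:17803296-17803324, 5' to 3' on the minus strand, with the 11 bases centred on the summit in capitals.
CG17806: caaatccacAGTTCAAATCGgaagaacta
Within 50 bp of this summit 69.3% of bases were A or T, close to the median of 70.3% over all IDR peaks (25th to 75th percentile 65.3 to 74.3). Around 250 bp to each side the share was 57.8%.

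At Nnk the lists disagreed about the place of the summit at its start. Replicate 1 had it at 17805222, 27 bp downstream of the start site in the 5' UTR, at rank 15263 with a q-value of 0.000164. The pooled list had it 168 bp away, at 17805390 and 141 bp upstream of the start site, at rank 28980 with a q-value of 0.365. This was the weakest pooled summit of the cluster, and replicate 2 had none closer to it than 5846 bp.

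The 101 bases centred on the pooled summit, between Nnk and CG17801 at chr3R:17805340-17805440, are shown on the minus strand as the A- and T-richest site of the cluster, with the 11 central bases in capitals.
Nnk: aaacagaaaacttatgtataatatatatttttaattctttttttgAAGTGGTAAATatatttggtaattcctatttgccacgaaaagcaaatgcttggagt
Here 75.2% of bases were A or T, a value that 91.3% of pooled peaks did not exceed, and the pooled peaks within 500 ranks of it had a median of 57.4%. The replicate 1 summit, 168 bp away, was at 55.4%.

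Odj had 3 summits in replicate 1 and 3 in the pooled list, more than any other gene of the cluster. The strongest was at its start, 20 bp upstream in replicate 1 (17809242, rank 7567, q-value 3.46e-05) and 23 bp upstream in the pooled list (17809245, rank 12465, q-value 0.000602). It sits in the 178 bp that separate Odj from Alg1, a mannosyltransferase gene of N-glycan assembly, at chr3R:17809223-17809400. That gap is shown whole because it holds the summit and some of the promoter motifs found at Odj. It is read on the minus strand with the 11 bases centred on the pooled summit in capitals.
Odj: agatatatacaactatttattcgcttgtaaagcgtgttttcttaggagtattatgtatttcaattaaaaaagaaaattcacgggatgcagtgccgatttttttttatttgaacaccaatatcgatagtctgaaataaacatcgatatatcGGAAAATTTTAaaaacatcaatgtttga
The gap is 72.5% A or T. It holds TATCGATA, the site named for the replication-related element factor DREF, at positions -60 to -53 from the start, and 4 matches of CGATA, the core that BEAF-32 is known to bind, 2 of them inside that site.

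The second summit of Odj was in its coding sequence, 729 bp downstream of the start site in replicate 1 (17808493, rank 19887, q-value 0.00847) and 699 bp downstream in the pooled list (17808523, rank 23018, q-value 0.167). Its 101 central bases at chr3R:17808473-17808573, again on the minus strand with the 11 bases at the pooled summit in capitals, are shown for their contrast with the other sites.
Odj exon: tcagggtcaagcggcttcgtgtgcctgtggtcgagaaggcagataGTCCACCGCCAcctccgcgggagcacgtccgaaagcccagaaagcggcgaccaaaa
Of these bases 37.6% are A or T, and 1.04% of all pooled peaks had a value this low or lower. The third summit lay over the 3' UTR of Odj and is the one nearest to CG17801.

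CG17801, like CG17806, had no summit over its own body in any of the 4 lists. The summit at its start lay 438 bp upstream in replicate 1 (17807523, rank 13793, q-value 3.46e-05) and 430 bp upstream in the pooled list (17807515, rank 18272, q-value 0.0403), over the 3' UTR of Odj. It was the farthest from a start site of the 5 start-site summits, and within 250 bp CG17801 has none. In the pooled list 57.4% of the bases around it were A or T.

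CG17803, the gene with the extra zinc-finger matches, had its summit at the upstream one of its start sites. In replicate 1 it lay 1 bp upstream (17801513, rank 7516, q-value 3.46e-05), in the 29 bp before CG17806, and in the pooled list 44 bp downstream in the 5' UTR (17801468, rank 10798, q-value 0.000232). The whole of that gap, chr3R:17801513-17801541, is shown on the minus strand to place the summit, with the bases up to 5 bp from the replicate 1 summit in capitals.
CG17803: aattgggctattctcaacaagtgCTTAAA
Around the replicate 1 summit 67.3% of bases were A or T, and around the pooled summit 54.5%. Both summits were 3069 bp or more from any summit of replicate 2.

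**Figure D2:**
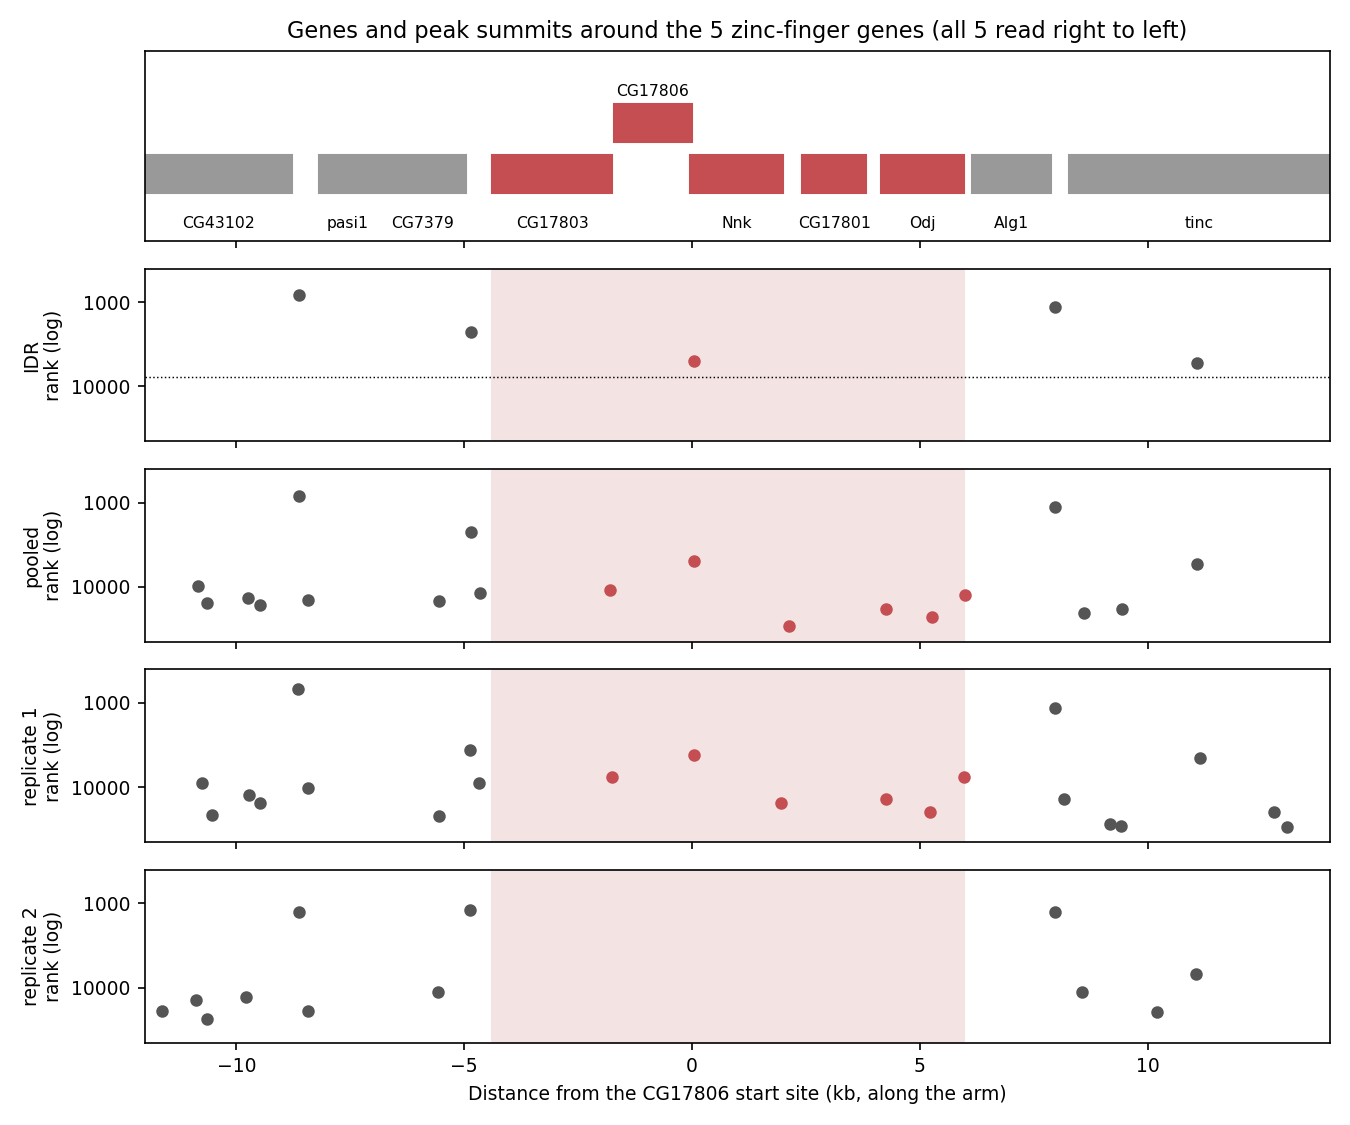
Genes (top) and peak summits in the 4 lists against distance from the CG17806 start site in kb along the arm; the rank by signal is on a log axis with strong peaks at the top, red points are summits at the 5 genes, grey points others, shading the span of the 5 genes, and the dotted line the last rank of the IDR list. Replicate 1 and the pooled list have 6 summits each at the 5 genes, replicate 2 has none there, and all lists have strong summits at the promoters on both sides.

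Across the cluster, replicate 1 and the pooled list had 6 summits each at the 5 genes, the IDR list 1 and replicate 2 none. The Odj start summit lies just outside the span of the genes, and the 5 summits inside it came to 4.83 per 10 kb in replicate 1, against 2.07 over the whole of 3R. In the pooled list, also with 5 inside, the density was 4.83 against 2.05 per 10 kb, and in the IDR list 0.967 against 0.549. Replicate 2 had 0 in the span against 2.22 per 10 kb on 3R. The surroundings were denser than the arm as well. In every list, the stretches of 10346 bp directly before and directly after the span each held more summits than the span itself.

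Of the 6 pooled summits, 5 had a replicate 1 summit within 100 bp and the remaining one, at the start of Nnk, had its nearest at 168 bp. None had a replicate 2 summit within 200 bp, and the replicate 1 summits lay from 1994 bp (start of Odj) to 6014 bp (start of Nnk) from the nearest one. With the pooled list limited to a q-value of at most 0.05, 4 of the 6 summits were left, and CG17806, CG17803, CG17801 and Odj kept a start-site summit. All 6 summits of replicate 1 were below 0.05.

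The stretch with no replicate 2 summit reached from 17798399 to 17811236, or 12837 bp, and ended at strong summits on both sides. The first lay 95 bp upstream of CG7379 at rank 1190 in replicate 2, where replicate 1 had a summit 82 bp upstream at rank 3586. The other lay 102 bp upstream of Alg1 at rank 1256 in replicate 2, where replicate 1 had one 97 bp upstream at rank 1151. Replicate 2 thus ranked both neighbouring promoters high while it listed nothing between them, although its list goes down to a −log10 q of 0.146.

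Such a stretch was not unusual for its length: 1984 of 29994 gaps between neighbouring replicate 2 summits (6.61%) were at least as long. It held 7 replicate 1 summits more than 100 bp from both ends, the 6 at the 5 genes and 1 upstream of CG7379. Among all gaps 109, this one included, held as many or more, and 24 of those were no longer than it. The 1297 gaps of 10 to 16 kb had a median of 0 replicate 1 summits. In the other direction, 418 gaps between replicate 1 summits held 7 or more summits of replicate 2.

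How often replicate 2 shared a replicate 1 peak depended on its rank, from 99.1% for the first 1500 peaks to 10.6% for the last 1500, and the 6 summits were set beside peaks of like rank. Of the 1001 replicate 1 peaks within 500 ranks of the CG17806 summit, 929 (92.8%) had a replicate 2 summit within 100 bp, and 5, itself included, were at least as far from one as the CG17806 summit (0.5%). For the summits at the starts of CG17803 and Odj the share of like-ranked peaks with a partner was 68.8% and 68.1%. For the summits near CG17801 and Nnk it was 35.7% and 29.2%, and for the one in the Odj coding exon 23.5%. Counted the same way, peaks at least as far from replicate 2 made up 2.5% for CG17803, 2.8% for Nnk, 3.9% for the Odj start, 5.39% for CG17801 and 10.5% for the Odj exon. The 6 summits lie in 1 stretch and are not independent of each other.

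**Figure D3:**
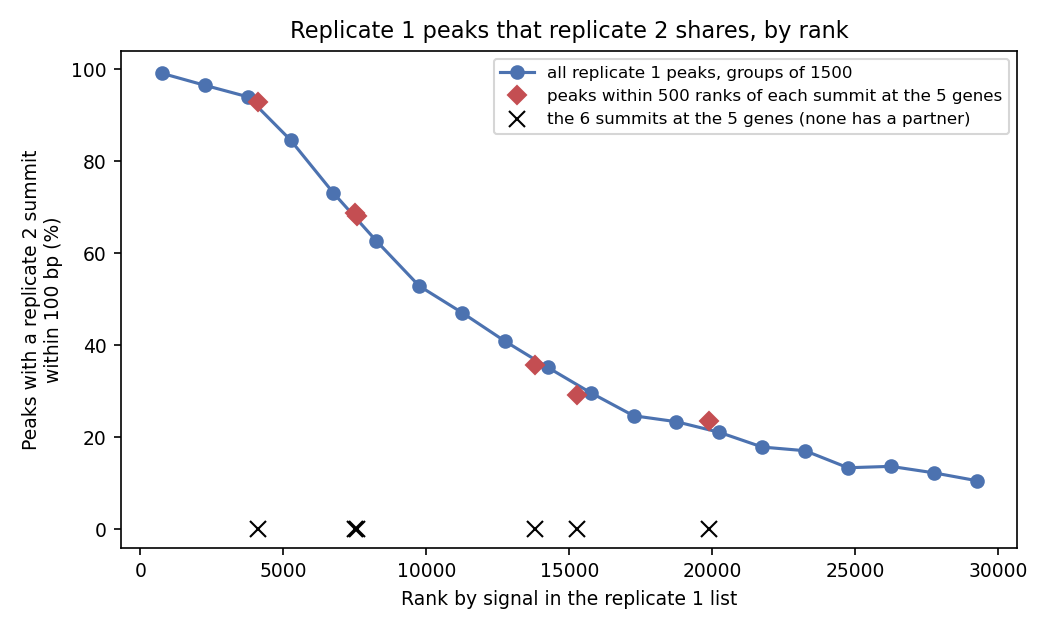
The percent of replicate 1 peaks with a replicate 2 summit within 100 bp against their rank by signal in replicate 1, in groups of 1500 peaks (line) and within 500 ranks of each summit at the 5 genes (diamonds). The share falls with rank, to 92.8% around the CG17806 summit and 23.5% around the weakest summit at the 5 genes, and the crosses mark that none of the 6 has a partner.

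The CG17806 start-site peak entered the IDR list without a replicate 2 summit near it, which few IDR peaks did. That list holds the 7645 strongest pooled peaks, so a place in it does not by itself mean a summit in both replicates. Of the 7645 IDR peaks, 362 (4.74%) had a replicate 1 but no replicate 2 summit within 100 bp, and 214 (2.8%) the reverse. A replicate 2 summit was more than 1000 bp away in 75 cases, and at least as far away as at CG17806 in 26, CG17806 included (0.34%). Among the 1001 IDR peaks within 500 ranks of it, 951 (95.0%) had a replicate 2 summit within 100 bp and 7, again with CG17806, were at least as far from one.

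Base composition varied widely among the 6 pooled summits. Counted over the bases up to 50 bp away, A and T averaged 59.9% ± 13.3 (SD across 6 summits), against 62.1% ± 10.5 over all 30000 pooled peaks. It was highest at the starts of Nnk (75.2%, at a summit with a q-value of 0.365), CG17806 (69.3%) and Odj (65.3%). Values were lower near CG17801 (57.4%) and CG17803 (54.5%), and lowest in the Odj exon (37.6%). The order differed at the replicate 1 summits, with 69.3% at CG17806, 67.3% at CG17803 and 64.4% at the Odj start. There, Nnk and CG17801 were at 55.4% and the Odj exon at 40.6%. Over the span of the genes, A and T made up 64.9% of the bases outside coding sequence and 55.2% of all bases. The bases around 250 bp to each side of the 5 summits outside coding sequence were 57.8% to 61.8% A or T, and those at the Odj exon summit 42.2%.

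**Figure D4:**
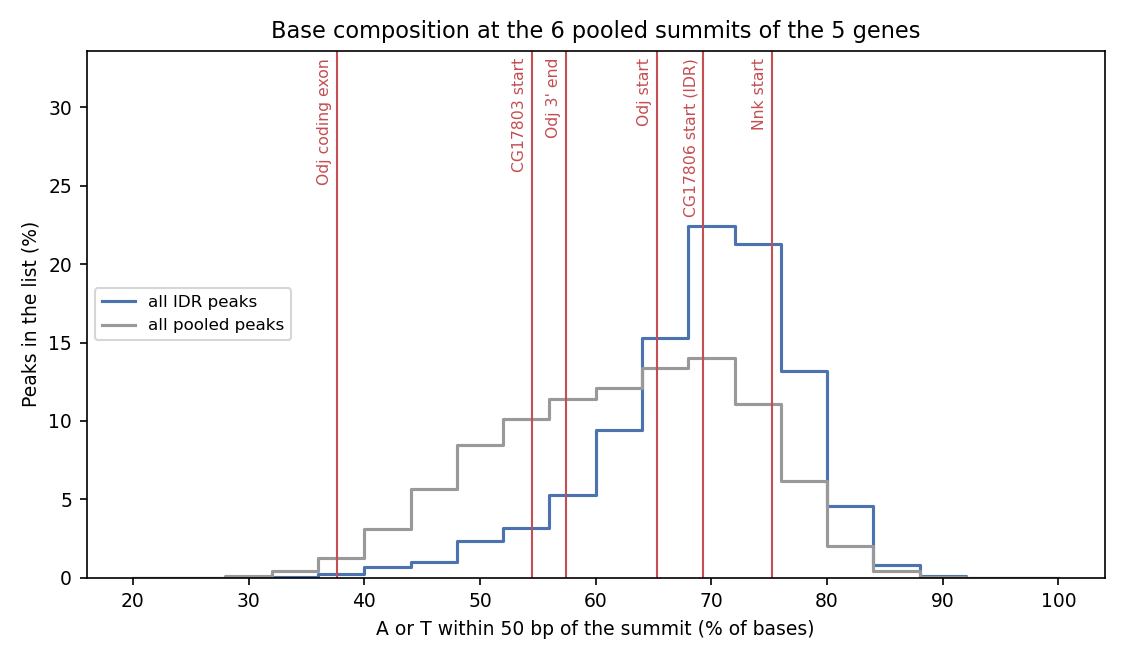
The percent of A and T in the bases up to 50 bp from a summit for all IDR peaks (blue) and all pooled peaks (grey), as percent of peaks per 4-point step, with red lines at the 6 pooled summits of the 5 genes. The lines run from 37.6% in the Odj coding exon (q-value 0.167) to 75.2% at the start of Nnk (q-value 0.365).

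Matches of core promoter motifs at the summits were set beside their shares over all pooled peaks, as a description. Within 50 bp of the pooled summits, TATAAA and GGTCACACT, the site of the ZAD protein M1BP, were found at none of the 6, and TATCGATA and CGATA at that of the Odj start alone. The replicate 1 summits differed from this in 2 places, with GGTCACACT also inside the window of the Odj start and 2 matches of CGATA at the Odj exon. Over all pooled peaks the shares were 17.1% for TATAAA, 0.447% for GGTCACACT, 0.747% for TATCGATA and 12.2% for CGATA, which also counts the matches inside TATCGATA. In windows from 250 bp before to 50 bp after each start site, on both strands, TATAAA was found at CG17806, CG17801 and Odj, against 42.3% of 19253 protein-coding start sites. At CG17806 it lay at positions -189 to -184 from the start, 1 match, and at CG17801 there were 3 matches, all more than 200 bp upstream. CGATA was found at CG17806 and Odj (45.7% of all start sites), and TATCGATA and GGTCACACT at Odj (7.98% and 5.23%). The windows at the start sites of CG17803 and Nnk held none of the 4 motifs.

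The nearest promoters on both sides of the cluster had stronger peaks than any of the 5 genes. In the IDR list, 4 summits lay within 500 bp of a start site from 25 kb before the cluster to 25 kb after it. The first, at 17794626 and rank 828, is 136 bp upstream of CG43102 and also near pasi1, a septate junction gene. The next is 111 bp upstream of CG7379 at rank 2249, and one 97 bp upstream of Alg1 at rank 1145 is also near the start of tinc, which encodes a membrane protein. The CG17806 summit, at rank 4963, was the weakest of the 4. The remaining IDR summits of this interval lay in introns of CG43102 and tinc.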

How the data were processed

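Peak lists of 2 biological replicates were used, all on dm6. Per the notes that the submitters deposited beside the lists, the authors called each replicate's list from 1 alignment and a control alignment, the pooled list from both alignments and the control, and the IDR list from those 3 lists. Aligner, peak caller, read length and depth: not given in the sources used here. Chromatin was sonicated to 200 to 800 bp, per the labels. Each deposited list gives per peak a signal on an unstated scale, used only for ranks, a q-value as −log10 q, and the summit offset from the interval start.

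Genes came from Ensembl release 115 and sequence from the Release 6 assembly. A summit was assigned to a gene when over its body or within 500 bp of a start site. Promoter and motif windows, 32-base words and protein identity (BLOSUM62 global alignment, Biopython 1.88) were computed with Python 3.11.15. The assignment was tested on simulated data: 200 of 200 placed genes were found. There is 1 group, so no test was run. The members, the ZAD list and the motifs were chosen with earlier results of these data known. The genes named are the members, genes that overlap or lie between them, and the nearest start site of each IDR summit within 25 kb; pasi1 was added as the second gene at such a summit. Alternatives were other distances, lists, a q-value of at most 0.05, and each replicate alone.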

Additional observations from a re-analysis of the deposited data

How the results depend on the processing

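The number of the 5 genes with a start-site summit was 1 in the IDR list within 250, 500 and 1000 bp and with each summit given to its nearest start site only. It was 0 in the strongest 25% of the IDR list, 5 in the pooled list and 4 in the pooled list with a q-value of at most 0.05. With as many top peaks of a single replicate as the IDR list holds, it ranged from 0 without replicate 1 to 3 without replicate 2. The 6 pooled summits became 4 with a q-value of at most 0.05 and 1 in the IDR list. In place of the pooled list, the list of replicate 2 alone gave 0 summits and that of replicate 1 alone gave 6. No pooled list was called again without a replicate, so the part of each replicate in the pooled peaks was not tested. The number of pooled summits shared by both replicates was 0 within 50, 100 and 200 bp and with a q-value of at most 0.05. The mean share of A and T at the summits was 59.5% within 25 bp, 59.9% within 50 bp and 62.0% within 100 bp. In the stricter lists, fewer peaks enter by construction. The lists of a single replicate were taken with as many peaks as the list they replaced. Causes of the other differences were not tested. No paired analysis was possible because the labels give 1 group. Unknown depth limits what the empty stretch of replicate 2 shows: a peak below its list's last rank is not listed.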
